A study of Caenorhabditis elegans with 2 samples.

Results

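The C-type lectin genes of Caenorhabditis elegans, named clec followed by a number, were examined for peaks of tagged UNC-42. The family was defined as every protein-coding gene of the Ensembl WBcel235 annotation with such a symbol, which gave 240 of 19973 genes. A member was counted as having a peak when the summit of a peak in the optimal set lay in its body or in the 2000 bp upstream of its 5' end. The members with a peak were thus chosen by the peak lists themselves, and the family as a whole was selected on its low number of peaks, so the counts and signals below are descriptions with no test. There were 13 members with a peak (5.42%), 57 with only weaker entries of the pooled list (23.8%) and 170 with neither (70.8%). Over all protein-coding genes the same rules gave 19.6% with a peak, 32.9% with only weaker entries and 47.4% with neither.

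Chromatin immunoprecipitation followed by sequencing was done on whole animals of the hermaphrodite strain OP173 at the late embryonic stage, 3 hours after the eggs were bleached for synchronisation. The animals carried UNC-42 fused at its C terminus to GFP and FLAG, chromatin was recovered with an antibody against GFP, and there were 2 biological replicates of 1 group. The labels also enter unc-42 as the antibody, and the tagged animals of this line are the only genotype, so without untagged or differently tagged animals beside them the peaks cannot be credited to UNC-42 in particular. The data are lists of peaks with a signal value from the submitters' peak caller, which has no unit and can be compared within a list only. Read depth is unknown, and in whole embryos a site used in few cells cannot be told apart from a weak site.

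C-type lectin domains are folds that in many animals bind sugars, often with the help of calcium. In C. elegans the family has expanded greatly, most members carry signals for secretion, and many are known from the intestine and from responses to infection with bacteria. UNC-42 is a homeodomain protein that acts in the nervous system, where it is needed for the fate of several classes of neurons. One member, clec-38, is known for a role in axon growth. It had neither a peak nor a weaker entry, like 70.8% of the members.

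The 13 members held 15 summits, 2 each at clec-93 and clec-78 and 1 at each of the others. Their pooled signals ran from 83.1 to 339 with a median of 127, where the optimal set of 4780 peaks ran from 81.6 to 1404 with a median of 138. In rank they lay between 356 and 4683, with 7 among the strongest 2390 of the set and 8 below. Intergenic sequence held 10 of the 15 summits, an intron of a protein-coding gene 3, a 5' UTR 1 and a tRNA gene 1. None was in a coding exon. These classes were not counted over all optimal summits, so they are not shown to be particular to the members. Of the 15, 13 lay upstream of the member, between 184 and 1873 bp from its 5' end with a median of 1000 bp. Both summits of clec-78 lay inside the gene. Counting only upstream sequence gave a peak at 12 members and at 3138 of all protein-coding genes. Counting only gene bodies gave 1 member and 1087 of all genes. With both counted, these were 13 and 3917.

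The windows below show the 201 bases centred on the summit for clec-140, clec-126, clec-164, clec-10 and clec-160, where the member's own 5' end was the nearest to an upstream summit outside any other protein-coding gene, and for clec-264, where another gene was nearer. They were read from the RefSeq sequence of WBcel235 (ce11), 5' to 3' on the plus strand. Windows of clec-91 and clec-93, whose upstream summits also lay nearest to their own gene and outside any other protein-coding gene, are not printed. Capitals mark matches on either strand to one of 4 motifs. They are TAATTA, the core site of homeodomain proteins; GAGAGAGA, a simple repeat; GATAA, known from the promoters of intestinal genes; and CACGTG, the E-box of helix-loop-helix proteins. A match is a description of the window and not a site.
clec-140 (chrII:4672665-4672865, plus strand): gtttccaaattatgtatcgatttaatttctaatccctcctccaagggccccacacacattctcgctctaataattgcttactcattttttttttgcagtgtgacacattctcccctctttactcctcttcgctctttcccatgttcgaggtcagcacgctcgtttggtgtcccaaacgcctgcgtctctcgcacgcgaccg
clec-126 (chrII:3519210-3519410, plus strand): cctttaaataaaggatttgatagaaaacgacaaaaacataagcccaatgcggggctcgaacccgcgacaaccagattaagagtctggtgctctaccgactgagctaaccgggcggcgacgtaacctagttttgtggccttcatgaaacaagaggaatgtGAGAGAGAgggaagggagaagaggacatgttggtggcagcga
clec-164 (chrIV:715532-715732, plus strand): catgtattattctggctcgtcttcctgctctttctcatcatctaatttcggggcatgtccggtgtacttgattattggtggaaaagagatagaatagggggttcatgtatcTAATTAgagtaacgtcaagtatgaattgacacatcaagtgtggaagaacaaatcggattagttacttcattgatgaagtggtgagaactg
clec-10 (chrII:401268-401468, plus strand): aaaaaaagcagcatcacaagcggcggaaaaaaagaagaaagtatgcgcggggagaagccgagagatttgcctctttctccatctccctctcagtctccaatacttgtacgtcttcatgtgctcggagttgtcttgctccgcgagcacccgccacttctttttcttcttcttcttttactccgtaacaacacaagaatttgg
clec-160 (chrIII:8276871-8277071, plus strand): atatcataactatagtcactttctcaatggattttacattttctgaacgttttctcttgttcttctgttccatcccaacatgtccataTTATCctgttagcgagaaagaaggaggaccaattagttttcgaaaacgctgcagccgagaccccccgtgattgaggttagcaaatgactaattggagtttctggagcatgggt
clec-264 (chrV:20852031-20852231, plus strand): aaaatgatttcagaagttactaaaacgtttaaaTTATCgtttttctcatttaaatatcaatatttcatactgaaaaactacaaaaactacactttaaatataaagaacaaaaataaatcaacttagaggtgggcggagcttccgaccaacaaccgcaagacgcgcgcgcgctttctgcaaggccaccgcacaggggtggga

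The strongest peak at a lectin gene was that of clec-140 (II, 4673060 to 4676285), with a pooled signal of 339 at rank 356. Replicate 1 had it at rank 383 with a signal of 149 and replicate 2 at rank 317 with a signal of 197, so both lists placed it high. Its intergenic summit lay 295 bp upstream. The gene hmg-11, named for a high mobility group protein, starts 25 bp further on the same strand and lies within clec-140 (4673085 to 4673746). The summit thus lay 320 bp upstream of hmg-11 as well, and these starts are too close for the summit to tell them apart. It was also 973 bp upstream of T05A7.6 (4668643 to 4671792), which starts on the other strand. The window printed for clec-140 held none of the 4 motifs.

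The second was clec-126 (II, 3519494 to 3520712), with a pooled signal of 260 at rank 703, at 113 in replicate 1 (rank 784) and 153 in replicate 2 (rank 610). Its summit lay 184 bp upstream, the closest of any member, and inside a tRNA gene (3519250 to 3519322, minus strand). Of the 4780 optimal summits 43 (0.900%) lay in a tRNA gene. Near-identical tRNA genes can share reads, and the part of this in the peak was not tested. The printed window has this tRNA gene across its centre and a GAGAGAGA match beyond it.

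A pair of summits stood upstream of clec-93 (chromosome I, 11142110 to 11144135), 201 bp apart, and no other protein-coding gene had them in its body or upstream region. The farther one, 1561 bp upstream, had a pooled signal of 216 at rank 1079, with 96.5 in replicate 1 (rank 1113) and 126 in replicate 2 (rank 972). The nearer one, 1360 bp upstream, had 104 at rank 3597, and the replicates ranked it differently. It had a signal of 26.9 in replicate 1, at rank 7998, and of 68.6 in replicate 2, at rank 2868. The intervals of both peaks overlap, so they may share reads. Both windows held TAATTA, and that of the nearer summit also GATAA.

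At clec-164 (IV, 716623 to 717765) the summit lay 991 bp upstream with a pooled signal of 180 at rank 1542. It stood higher in the replicate 1 list, at rank 1022, than in the replicate 2 list, at rank 2339. The next protein-coding 5' end was 3819 bp away, and the printed window held TAATTA. At clec-10 (II, 402678 to 404180) the summit lay 1310 bp upstream, with a pooled signal of 124 at rank 2822, and the replicate lists had it at ranks 2269 and 2261. This peak was also within 2000 bp of C03H5.6, whose 5' end is 1947 bp away on the other strand. The summit of clec-160 (III, 8272956 to 8275971) lay 1000 bp upstream, with a pooled signal of 96.5 at rank 3948 and with ranks 3885 and 4042 in the replicates. Its nearest neighbour was mig-10, an adaptor protein gene of axon guidance, with a 5' end 2130 bp from the summit on the opposite strand.

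The weakest members came close to the edge of the optimal set. The summit of clec-91 (chromosome I, 9126140 to 9127101) lay 1749 bp upstream with a pooled signal of 87.0 at rank 4477, and in no other protein-coding gene's region. It ranked 3456 in replicate 1 and 5848 in replicate 2. That of clec-151 (III, 4628465 to 4631132) had the lowest signal, 83.1 at rank 4683, and lay 1873 bp upstream, the farthest of any member. The gene sits inside pfas-1 (4618801 to 4643310), a purine synthesis gene on the opposite strand, and the summit was in an intron of it. The replicates differed most here, with rank 3222 (signal 52.6) in replicate 1 and rank 10921 (signal 23.5) in replicate 2.

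At 5 of the 13 members the 5' end nearest to each summit belonged to another gene. The summit of clec-87 (chromosome I, 10184462 to 10185520) lay 274 bp upstream of it and 61 bp upstream of rsa-1, a spindle assembly gene that starts on the other strand, with a pooled signal of 127 at rank 2736. That of clec-53 (chromosome I, 3871474 to 3873402) was 552 bp upstream, in an intron of uba-5, an enzyme gene of the UFM1 pathway, and 510 bp inside it, with a signal of 94.4 at rank 4067. That of clec-104 (chromosome I, 12859493 to 12861293) was 996 bp upstream and 216 bp upstream of ciao-1, an iron-sulphur assembly gene, with a signal of 92.7 at rank 4155. Each of these pairs is transcribed in opposite directions from the stretch that holds, or adjoins, the summit. In replicates 1 and 2, clec-87 ranked 3425 and 2325, clec-53 3878 and 4256, and clec-104 3408 and 5109.

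The remaining cases had another arrangement. The summit of clec-264 (V, 20847702 to 20850701) lay 1430 bp upstream, beyond ndua-1, a gene of mitochondrial complex I that stands on the same strand 175 bp before clec-264. The summit was 234 bp upstream of ndua-1 and had a pooled signal of 197 at rank 1296, with ranks 1626 and 1047 in the replicates. The gene clec-78 (IV, 3989102 to 4014235) is long and has W02C12.2 inside it on the opposite strand. One summit was in an intron of clec-78, 16237 bp from its 5' end, with a signal of 200 at rank 1263. The other lay 2600 bp further on, in the 5' UTR of W02C12.2 and 34 bp from its 5' end, with a signal of 194 at rank 1337. The replicates had the first at ranks 1169 and 1359 and the second at ranks 1286 and 1661.

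Counting a peak only for the gene whose 5' end is nearest, within 2000 bp, left 8 members (3.33%), where 12.5% of all protein-coding genes had a peak by that count. The 8 were clec-10, clec-91, clec-93, clec-126, clec-140, clec-151, clec-160 and clec-164, so 61.5% of the 13 were retained. Among all 3917 genes with a summit in the body or upstream region, 62.2% were. This count also drops genes with a summit more than 2000 bp inside them, so it is no measure of how often a summit is shared. Of the 15 summits, 8 lay in the region of at least 1 other protein-coding gene.

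**Figure D1:**
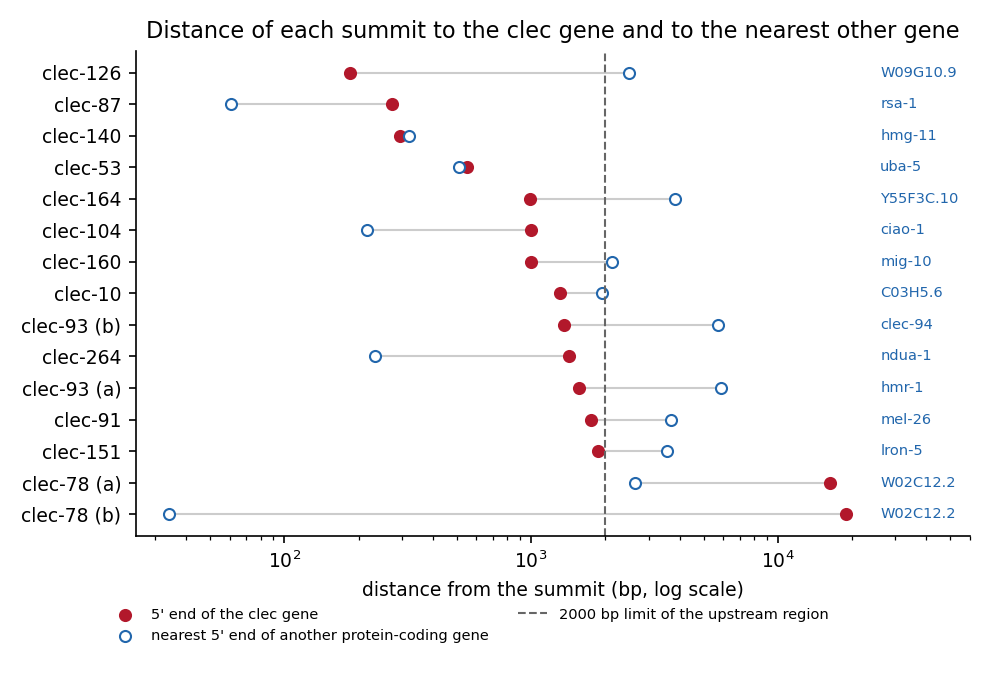
Distance in bp (log axis) from each of the 15 summits to the 5' end of the clec gene (filled) and to the nearest 5' end of another protein-coding gene (open, named at the right), with (a) and (b) marking the pairs of clec-93 and clec-78. The open points lie to the left of the filled ones at clec-53, clec-87, clec-104, clec-264 and both summits of clec-78, and the pair at clec-140 is 295 and 320 bp away.

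Both replicates contributed to the optimal set, so their values are not an independent check. All 15 summits had an entry within 100 bp in both replicate lists. Among the 4780 strongest entries of each list, 14 of the 15 were found in replicate 1 and 12 in replicate 2, and 11 in both (76.8% of all optimal peaks were in both). The exceptions were the nearer summit of clec-93, low in replicate 1, and those of clec-91, clec-104 and clec-151, low in replicate 2. Of these, clec-91, clec-104 and clec-151 had no other summit, so counting the 4780 strongest entries of replicate 2 alone gave 10 members, all of them among the 13. The same count in replicate 1 alone gave 15 members, the 13 with clec-42 and clec-246 added.

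**Figure D2:**
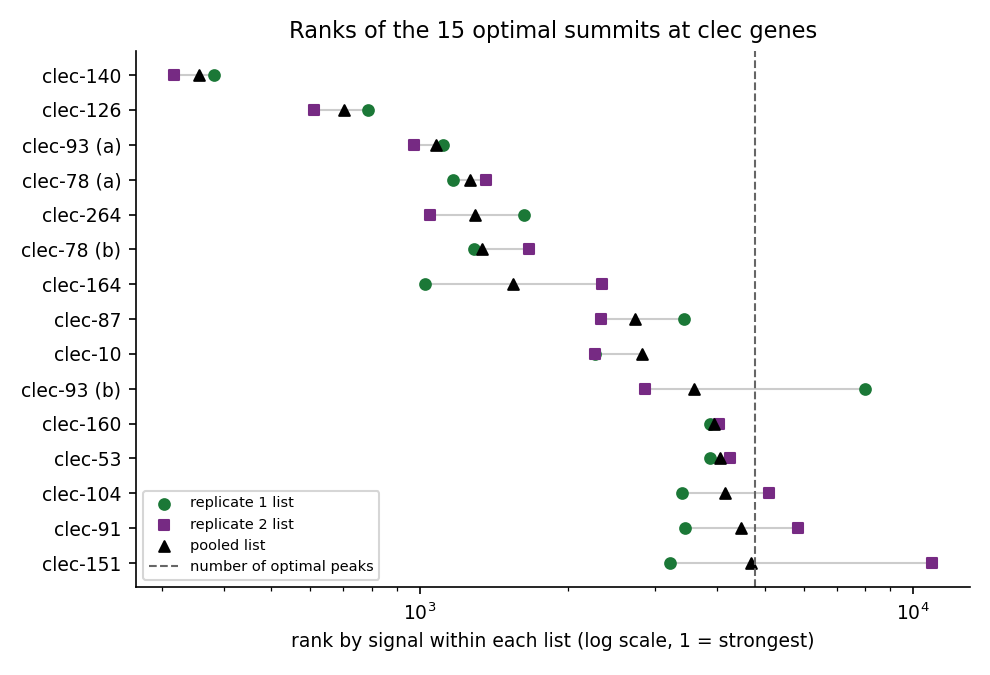
Rank by signal (log axis, 1 is the strongest) of the 15 summits in the replicate 1 list (circles), the replicate 2 list (squares) and the pooled list (triangles), with a dashed line at 4780, the number of optimal peaks. The ranks of clec-140 lie between 317 and 383, whereas those of clec-151 spread from 3222 to 10921.

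The weaker entries of the pooled list were then described. That list was made as input for the selection of reproducible peaks and holds background regions as well, so an entry is not a site. Member regions held 97 of the 18998 weaker entries, with signals from 23.2 to 80.7 and a median of 31.8 (33.6 over all weaker entries). Only 20 of the 97 (20.6%) had an entry within 100 bp in both replicate lists, against 29.2% of all weaker entries. Replicate 1 alone had 44, replicate 2 alone 21 and neither list 12. Of the 97, 61 lay in the body of a member, and the same share was not counted over all weaker entries. The long gene clec-78, with a region of 27134 bp, held 13 of the 97. No unbound member held more than 3.

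Among the 57 members with weaker entries only, 37 had 1 entry, 13 had 2 and 7 had 3. At 14 of the 57 every entry also lay in the region of another member. The strongest entry of each lay in an intron at 26, in a coding exon at 14 and in intergenic sequence at 14, and the member's own 5' end was the nearest at 35. These are counts of members, so a shared entry counts more than once, and they were not made over all weaker entries. The signals of the strongest entries formed a tail that began just under the edge of the optimal set. The member closest to that edge was clec-114 (chromosome I, 14233035 to 14235948), with an entry 1003 bp upstream at a pooled signal of 74.5 and rank 5325, against a lowest optimal signal of 81.6. That entry lay in the 5' UTR of C49A1.5. An entry with a signal of 69.5 at rank 5747 was in an intron of clec-246 and 766 bp upstream of its neighbour clec-42 (V, 18191412 to 18194168), a gene known from resistance to Bacillus thuringiensis. It ranked 3715 in replicate 1 and 8311 in replicate 2.

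The next members by signal had their entries inside the gene. They were clec-146 with 65.0 in an intron, clec-85 with 64.5 in a coding exon, clec-180 with 63.0 in a coding exon and clec-172 with 59.8 in an intron. Each of these 4 entries was in both replicate lists. The entry of clec-115, with 56.5 in a coding exon, was in the replicate 1 list only. Those of clec-113 with 54.2 and clec-57 with 51.9 were in both lists and nearer to other genes, hmg-6 at 574 bp and srz-97 at 439 bp. The entry upstream of clec-261, at 51.9, was in neither replicate list. With clec-173 at 45.8 these are the 12 members next in signal. The median of the strongest entry over all 57 was 34.8.

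**Figure D3:**
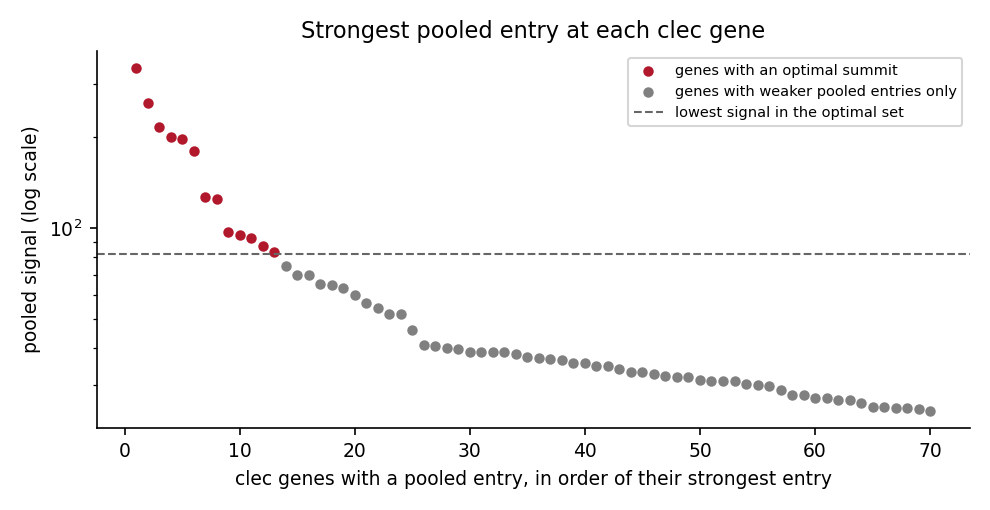
Pooled signal (log axis) of the strongest pooled entry at each of the 70 clec genes that had one, in falling order, for the 13 with an optimal summit (red) and the 57 with weaker entries only (grey), with a dashed line at 81.6, the lowest signal of the optimal set. The red points run from 339 to 83.1 and the grey points from 74.5 to 24.7.

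For the 227 members without a peak, the median gap between the member's region and the nearest optimal summit was 21879 bp, and 118 (52.0%) lay more than 20000 bp away. For the 15829 other protein-coding genes without a peak the median was 11844 bp, and 33.5% lay more than 20000 bp away. On V the medians were 36168 bp for 85 members and 21044 bp for other genes. These gaps rest on the same peaks that chose the members and were not tested. The farthest was clec-210 (V, 3118377 to 3120323), at 289320 bp. Within 5000 bp lay 26, the nearest being clec-180, with a summit 318 bp beyond its 3' end. On the upstream side, the summits just inside the 2000 bp limit were those of clec-151 at 1873 bp, clec-91 at 1749 bp, clec-93 at 1561 and 1360 bp and clec-264 at 1430 bp. Just outside it were clec-146 at 2975 bp, clec-179 at 4053 bp and clec-184 at 4725 bp, followed by clec-212 at 5387 bp and clec-161 at 5652 bp, and at each of these 5 another gene was nearer to the summit.

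The family is spread unevenly over the genome. Chromosome V carried 86 members, IV 53, II 48, I 36, III 14 and X 3. A peak was found at 5 members on I (13.9%, against 26.1% of other protein-coding genes there), 3 on II (6.25% against 19.3%), 2 on III (14.3% against 27.7%), 2 on IV (3.77% against 18.7%), 1 on V (1.16% against 11.7%) and none on X. On each chromosome the share was lower among members than among other genes, by description only. At the share of the other genes on each chromosome, 43.3 members (18.0%) would have a peak. The count was 13, and 19.6% of all genes had a peak. The family was selected on its low number of peaks, so a shortfall was fixed by that choice. Position along a chromosome was not allowed for. Whether chromosome, position or region length accounts for the low share was not tested. Member regions were of similar length, with a median of 3787 bp against 4027 bp over all genes. Joined without overlap, they covered 878 kb and held 1.71 optimal summits per 100 kb, against 4.60 over all gene regions.

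**Figure D4:**
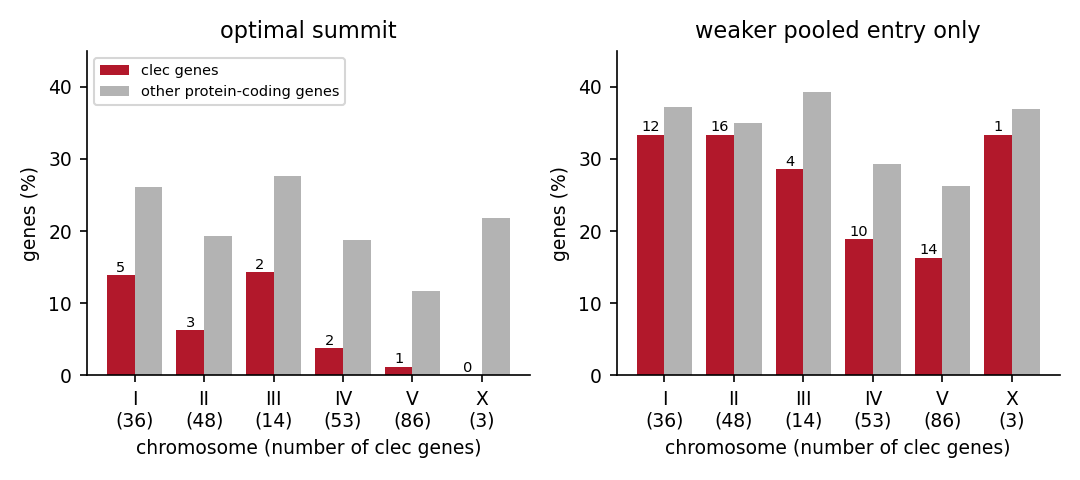
Percentage of genes with an optimal summit (left) and with weaker pooled entries only (right) on each chromosome, for clec genes (red, with the number of such members above the bar) and other protein-coding genes (grey). The red bar is lower than the grey one on every chromosome in both panels, with 1.16% against 11.7% on V for optimal summits, and 33.3% against 35.0% on II for weaker entries.

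Many members lie beside each other. Joining members whose 5' ends were less than 20000 bp apart gave 76 members that stood alone and 10 clusters of 5 to 13 members with 72 genes. Of the lone members 8 had a peak (10.5%), of the 92 in clusters of 2 to 4 there were 3 (3.26%), and of the 72 in the larger clusters 2 (2.78%). Over all protein-coding genes 19.6% had a peak. Cluster size was not separated from chromosome, and on V 1 of 86 members had a peak. Shares with only weaker entries were 26.3%, 19.6% and 26.4%. The largest cluster, 13 genes from clec-40 to clec-33 on V (16839121 to 16869840), had no peak and no weaker entry. It stood in a stretch of 213 kb between neighbouring optimal summits that held 52 protein-coding genes, 15 of them members. Longer such stretches on V held fewer members, for example 782 kb with 173 protein-coding genes, 4 of them members. The cluster from clec-67 to clec-78 on IV had 12 members and, with a peak, only clec-78, whose summits are in its intron and in W02C12.2. The cluster of clec-93 to clec-99 on chromosome I had 7, with a peak at clec-93 and weaker entries at 4 others. Neighbouring regions overlap, so an entry can count for several members. In clec-127 to clec-134 on II, 5 of 7 members had only weaker entries, but these were 3 separate entries, of which 1 lay in the regions of clec-127, clec-128 and clec-129. In clec-80 to clec-85 on IV there were 4 of 5 members with 5 entries, 1 of them counted at both clec-83 and clec-84, and in clec-165 to clec-170 on IV there were 0 of 6. Over all protein-coding genes the share with only weaker entries was 32.9%, and no difference between clusters was tested.

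**Figure D5:**
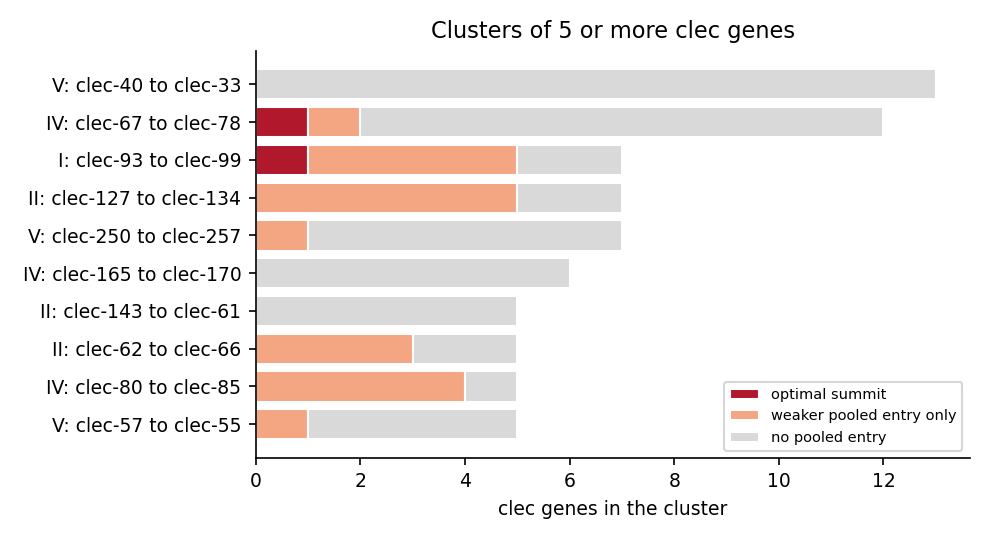
Number of clec genes in each of the 10 clusters of 5 or more, labelled by chromosome and by first and last gene, with an optimal summit (red), weaker pooled entries only (orange) or no pooled entry (grey). The clusters of 12 and 7 that end at clec-78 and begin at clec-93 are the ones with a red segment, and the cluster of 13 is grey throughout.

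RefSeq names the product of 207 members after the C-type lectin fold, and all 13 with a peak were among them. Other members are named after a further domain. They comprise 14 with a PAN-3 domain, 8 with a von Willebrand factor A domain, 5 with a CW domain, 3 with a CUB domain, 2 named after Deleted in malignant brain tumors and 1 after cubilin. None of these 33 had a peak, where 13 of 207 is 6.28%. Weaker entries were found at 6 of the 14, 2 of the 8, 0 of the 5, 1 of the 3, 1 of the 2 and 0 of the 1. Some members known from responses to bacteria were named after their values were seen, and they are not a complete list. Neither clec-60, clec-67, clec-39 nor clec-41 had a peak or a weaker entry. Weaker entries stood at clec-49, with a signal of 35.6, and at clec-42, with the 69.5 given above. Over the whole family, 70.8% of members had neither and 23.8% had weaker entries only. Genes picked in this way cannot show whether members known from responses to bacteria differ from the family. The symbols clec-15, clec-209 and clec-249 each stand on 2 gene entries whose bodies are identical in sequence (1371, 1257 and 391 bp). Reads from such copies cannot be placed by sequence, and none of the 6 had an entry.

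Under the 15 summits, the 201 bp windows held TAATTA at 4 (clec-87, clec-164 and both of clec-93), where 10.9% of all optimal windows held it. GATAA was at 6 (29.8% of all), GAGAGAGA at 2, clec-91 and clec-126 (11.7% of all), and CACGTG at none (3.33% of all). With 15 windows these counts describe the members and are no comparison. The median GC content was 41.8% at the member summits, from 35.8 to 49.3%, and 41.8% over all optimal summits. In the 97 weaker entries of member regions TAATTA was at 10.3%, against 12.9% of all weaker entries, and GAGAGAGA at none of them, against 4.00%.

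Other gene families were counted in the same way. Astacin proteases (nas) had a peak at 2 of 37 (5.41%), with nas-12 the strongest at a signal of 206. Transthyretin-like genes (ttr) had 1 of 58 (1.72%), ttr-59 at 209, SCP-like genes (scl) 0 of 24, and F-box A genes (fbxa) 3 of 170 (1.76%), with fbxa-90 the strongest at 485. Immune effector genes of the lys, ilys, spp, abf, cnc, thn and irg classes had 1 of 77 (1.30%), spp-28 at 155. Each of these 5 families thus had a share as low as that of the lectin genes or lower. Their median region lengths were 4813 bp (nas), 3002.5 bp (ttr), 3069 bp (scl), 3713 bp (fbxa) and 2974 bp (immune effectors). That of the lectin genes was 3787 bp, and no allowance was made for length. Immune signalling genes were not a symbol class but a list of 16 named genes, chosen with earlier results of these data known. Of them 8 had a peak (50.0%), against 19.6% of all protein-coding genes, so the share describes this list only. The strongest was at daf-16, the FOXO factor of insulin signalling, with a signal of 410. Regions of these 16 genes were longer, with a median of 7773 bp, and no allowance was made for that.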

How the data were processed

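UNC-42 ChIP-seq was available for 2 replicates of 1 group, as narrowPeak lists on ce11. Per the deposited text files, each replicate list and the pooled list are relaxed peak lists with background, made with 1 control file, and the optimal set passed the irreproducible discovery rate threshold over both replicates. The signal value and the −log10 q of each peak are those the authors deposited, and no header gives the caller, the aligner or their versions. Lists made on ce10 were not used here.

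Summits (start plus offset) were placed on Ensembl release 115 genes in Python 3.11.15, and every peak end lay within its WBcel235 chromosome. Weaker entries are pooled entries outside the optimal set. A replicate entry was matched within 100 bp. Where annotations overlapped, UTRs and coding exons of protein-coding genes took precedence over introns, and introns over genes of other biotypes. The region rule was tested on simulated summits. Named are all members with a peak, the 12 unbound members with the strongest weaker entries, those nearest the 2000 bp limit, the strongest gene of each comparison family and the genes nearest to member summits. Outside these rules, clec-38 and the members known from responses to bacteria were picked by hand. Also named outside them are the farthest member, clec-210, and members that mark clusters or duplicated symbols. The members and lists were chosen with earlier results of these data known. No test was run, since there is 1 group and the lists chose the members. Alternatives changed the upstream reach, the region, the way of assigning a summit, the peaks counted and the replicate used.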

Additional observations from a re-analysis of the deposited data

How the results depend on the processing

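The count of 13 members with a peak depended on the region counted. It was 8 with 1000 bp upstream, 4 with 500 bp, 1 with gene bodies alone, 8 by the nearest 5' end and 6 among the strongest 2390 optimal peaks, and stayed within 1.5 times with 5000 bp upstream (16), upstream sequence alone (12) and overlap of the peak interval (13). Leaving out either replicate gave 10 to 15. With 1 of these choices at a time, the share of members stayed below that of all protein-coding genes. By 2 choices made after seeing the data, 6 members had a summit in no other protein-coding gene's region, and 12 remained without summits in tRNA genes. The count of 57 members with only weaker entries was 87 with 5000 bp upstream, where its share (36.3%) came close to that of all genes (36.6%). It was 33 with upstream sequence alone, 17 for entries in both replicate lists, 3 with −log10 q of at least 2, and 57 to 71 from a single replicate. The members changed more than the counts. Of the 57 without replicate 1, 40 were among the main 57, and of the 71 without replicate 2, 48 were. Depth is unknown, so members without an entry are not shown to lack a site.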

Other observations

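A feature chosen after the windows were seen was an unbroken run of at least 15 purines or pyrimidines with more than 1 kind of base. It was present in 7 of the 15 member windows (46.7%) and in 32.0% of all 4780 optimal windows. The longest, 34 bases, was at the intronic summit of clec-78, followed by 25 bases at clec-126 and 23 bases at clec-10 and at the farther summit of clec-93. Among the weaker entries it was in 7 of 97 windows of member regions (7.22%) and in 14.8% of all. No test was run on these shares.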
